A study of Mus musculus with 10 samples.

Results

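The genes described here encode the extracellular matrix and the cells that are known to lay it down. They are 40 genes, taken by symbol from the 55020 lines of the deposited table. Each symbol had 1 line, and all 40 were among the 14496 lines whose mean over the tumours was at least 1 FPKM (a count of fragments scaled to exon length and to the mapped total, so a level that can be compared between genes). They were sorted into 9 classes by role: fibrillar collagens, microfibril and fibril-associated collagens, basement membrane collagens, proteoglycans, glycoproteins, elastic fibre and crosslinking genes, fibroblast surface markers, proteases and protease inhibitors. The classes and members were drawn up with earlier results of these data known.

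The samples were 10 tumours of Hepa1-6, a mouse hepatoma cell line, grown under the skin of C57/BL6 mice for 4 weeks and profiled by poly-A RNA sequencing. There were 5 tumours given vehicle (replicates 1, 2, 3, 5 and 6) and 5 given GSK343 (replicates 1 to 5), a small molecule that blocks EZH2, the enzyme by which Polycomb methylates histone H3. The series' design text calls them biological replicates. Tumours whose titles begin with C were taken as vehicle, since those titles do not name a treatment. Antibodies (a control one and anti-asialo-GM1) appear in the treatment protocol without being tied to any of the 10 tumours. The sources used here give no drug dose, treatment time or age of the mice. Each tumour is a mixture of the injected hepatoma cells and host cells, so more cells of a type and more RNA per cell cannot be told apart in any value below.

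Matrix is built from families of proteins with distinct roles. Fibrillar collagens are wound from helical chains into rope-like fibres, type IV collagen forms the sheet of basement membranes, and proteoglycans and glycoproteins decorate and link both. Lysyl oxidases crosslink collagen and elastin, matrix metalloproteinases cut the finished matrix, and TIMP proteins block those proteases. In solid tumours, fibroblasts are a well-known source of fibrillar matrix, while endothelial cells, pericytes, macrophages and tumour cells can contribute other parts.

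To show what the start sites of some of these genes look like, the 250 bases before a RefSeq start site are given for 5 members, read 5′ to 3′ on the gene's strand (RefSeq, GRCm38.p6). Postn and Bgn are shown for the size and the spread of their difference between groups, Col3a1 as a fibrillar collagen, and Mmp13 and Mmp3 as proteases whose levels varied widely from tumour to tumour. Capitals mark matches, on either strand, to TATAAA (the TATA box), CCAAT (the CCAAT box), GGGCGG (a GC box) and TGANTCA (the AP-1 element), and capitals run together where GC boxes overlap. The regions are chr3:54360857-54361106 for Postn, chr1:45311288-45311537 for Col3a1, chr9:7272264-7272513 for Mmp13, chr9:7445572-7445821 for Mmp3 and chrX:73483351-73483600 for Bgn, all on the plus strand. None of these windows overlaps an exon in GENCODE release M21.
Postn: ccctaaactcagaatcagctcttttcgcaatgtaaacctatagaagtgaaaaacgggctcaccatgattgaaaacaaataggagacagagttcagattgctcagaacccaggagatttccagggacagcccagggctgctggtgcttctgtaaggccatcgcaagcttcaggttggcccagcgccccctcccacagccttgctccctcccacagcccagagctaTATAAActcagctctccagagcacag
Col3a1: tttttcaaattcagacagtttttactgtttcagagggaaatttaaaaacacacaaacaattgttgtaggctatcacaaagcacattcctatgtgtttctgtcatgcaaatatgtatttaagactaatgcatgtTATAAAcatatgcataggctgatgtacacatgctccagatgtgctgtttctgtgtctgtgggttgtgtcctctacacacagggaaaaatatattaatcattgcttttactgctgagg
Mmp13: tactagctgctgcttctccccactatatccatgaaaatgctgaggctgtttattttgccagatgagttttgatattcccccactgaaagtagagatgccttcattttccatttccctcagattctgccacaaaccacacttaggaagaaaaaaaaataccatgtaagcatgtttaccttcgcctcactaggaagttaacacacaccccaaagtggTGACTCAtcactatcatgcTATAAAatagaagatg
Mmp3: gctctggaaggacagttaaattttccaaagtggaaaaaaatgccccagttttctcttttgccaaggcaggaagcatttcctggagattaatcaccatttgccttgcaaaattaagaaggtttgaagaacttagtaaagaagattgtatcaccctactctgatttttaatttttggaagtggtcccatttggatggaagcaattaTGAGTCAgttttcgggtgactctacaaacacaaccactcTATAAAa
Bgn: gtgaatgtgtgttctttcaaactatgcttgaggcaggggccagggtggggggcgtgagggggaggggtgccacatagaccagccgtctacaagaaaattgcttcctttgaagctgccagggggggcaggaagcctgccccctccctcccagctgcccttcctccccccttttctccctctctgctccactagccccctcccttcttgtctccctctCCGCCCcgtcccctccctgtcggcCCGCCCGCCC
The Mmp13 and Mmp3 windows, both on chromosome 9, each held an AP-1 element followed by a TATAAA match. The element began at position -35 in Mmp13 and -46 in Mmp3, and the TATAAA match at -16 and -7. The Postn window printed had a TATA box at -26, while the window of a further RefSeq start site of Postn (chr3:54359017-54359266) had no TATAAA match. The Col3a1 window had a TATAAA match at -117, and Bgn had 3 GC boxes and no TATA box. RefSeq windows were at hand for 24 of the 40 genes, 28 windows in all. TATAAA occurred in 7 of those 28 windows, while 12.4% of the 32851 windows of all genes hold it. GGGCGG occurred in 15 (53.6% against 32.7%), CCAAT in 9 (32.1% against 33.8%) and TGANTCA in 3 (10.7% against 6.75%). The windows of Tnc overlap each other, and the same TATAAA and GGGCGG sites are counted in each of them. Several member windows not printed here overlap annotated exons, among them those of Col4a1, Col4a2, Fbn1 and Sparc. The member counts of motifs and CpG therefore include exonic bases. The CpG count had a median of 7.5 per window among the members and 6 among all genes. These are matches of letters, and no binding or chromatin was measured.

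No gene of the 40 passed the test over all lines, although most of them had a higher mean in the GSK343 tumours. A difference is given as a log2 fold change, GSK343 minus vehicle, fitted to log2(FPKM + 1) with limma, a scale on which the change of low genes is understated. It was above 0 for 38 of the 40 members (and for 47.6% of all lines), with a median of 0.45 against -0.01 over all lines. At a Benjamini-Hochberg adjusted p under 0.05, limma called 0 of the 40 (0.0828% of all lines, and 0.069% as higher), and the smallest adjusted p among them was 0.189. An unadjusted p under 0.05 with a higher level in GSK343 was reached by 21 members, 52.5% of them, against 10.7% of all lines. No member was lower at that level, against 6.86% of all lines, and 17.6% of lines passed it in either direction. The groups did not overlap for 3 members, Postn, Col5a1 and Fbn1, which is 7.5% against 1.42% of all lines that were higher without overlap. No member was lower without overlap, against 1.2% of all lines. The count of 21 was 12 without GSK343 replicates 3 and 5 and 11 without vehicle replicate 6 and GSK343 replicate 5, and it ranged from 15 to 25 when each tumour was left out in turn. The 10.7% belongs to the fit of all tumours, and the share of all lines in these smaller fits is not given here.

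**Figure D1:**
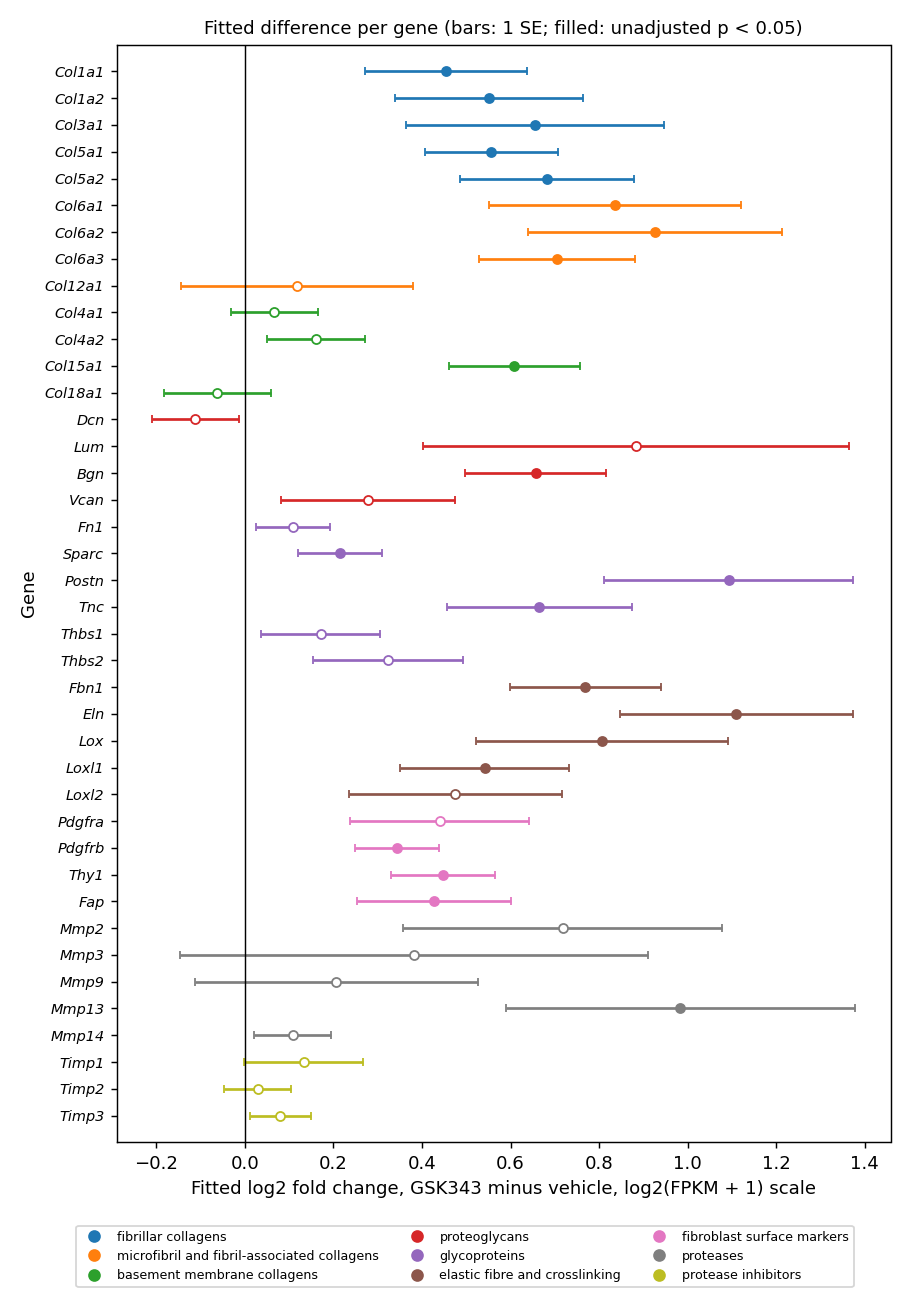
Fitted log2 fold change of each of the 40 genes, GSK343 minus vehicle, on the log2(FPKM + 1) scale, with bars of 1 SE and colours by class; filled points have an unadjusted p under 0.05. Points right of 0 are higher in GSK343 tumours: 38 genes lie there, from 0.03 for Timp2 to 1.11 for Eln, and Dcn and Col18a1 lie to the left.

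The difference was not spread evenly over the tumours. GSK343 replicate 5 held the highest value of the 10 tumours for 26 of the 40 genes, and vehicle replicate 6 the lowest for 21. Within their own groups, vehicle replicate 2 was the highest vehicle tumour for 22 genes and GSK343 replicate 4 the lowest GSK343 tumour for 24. For 19 genes both held, and among these were Col1a1, Col1a2, Col3a1, Col6a1, Bgn, Fbn1, Mmp2 and Thy1. The summed level of the 40 genes was 4230 ± 326 FPKM with vehicle and 4928 ± 575 FPKM with GSK343 (SD, n = 5 per group). Dcn and Fn1 alone made up 52.5% of that sum in vehicle and 44.96% in GSK343 tumours, and without them it was 2009 ± 310 and 2713 ± 503 FPKM.

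**Figure D2:**
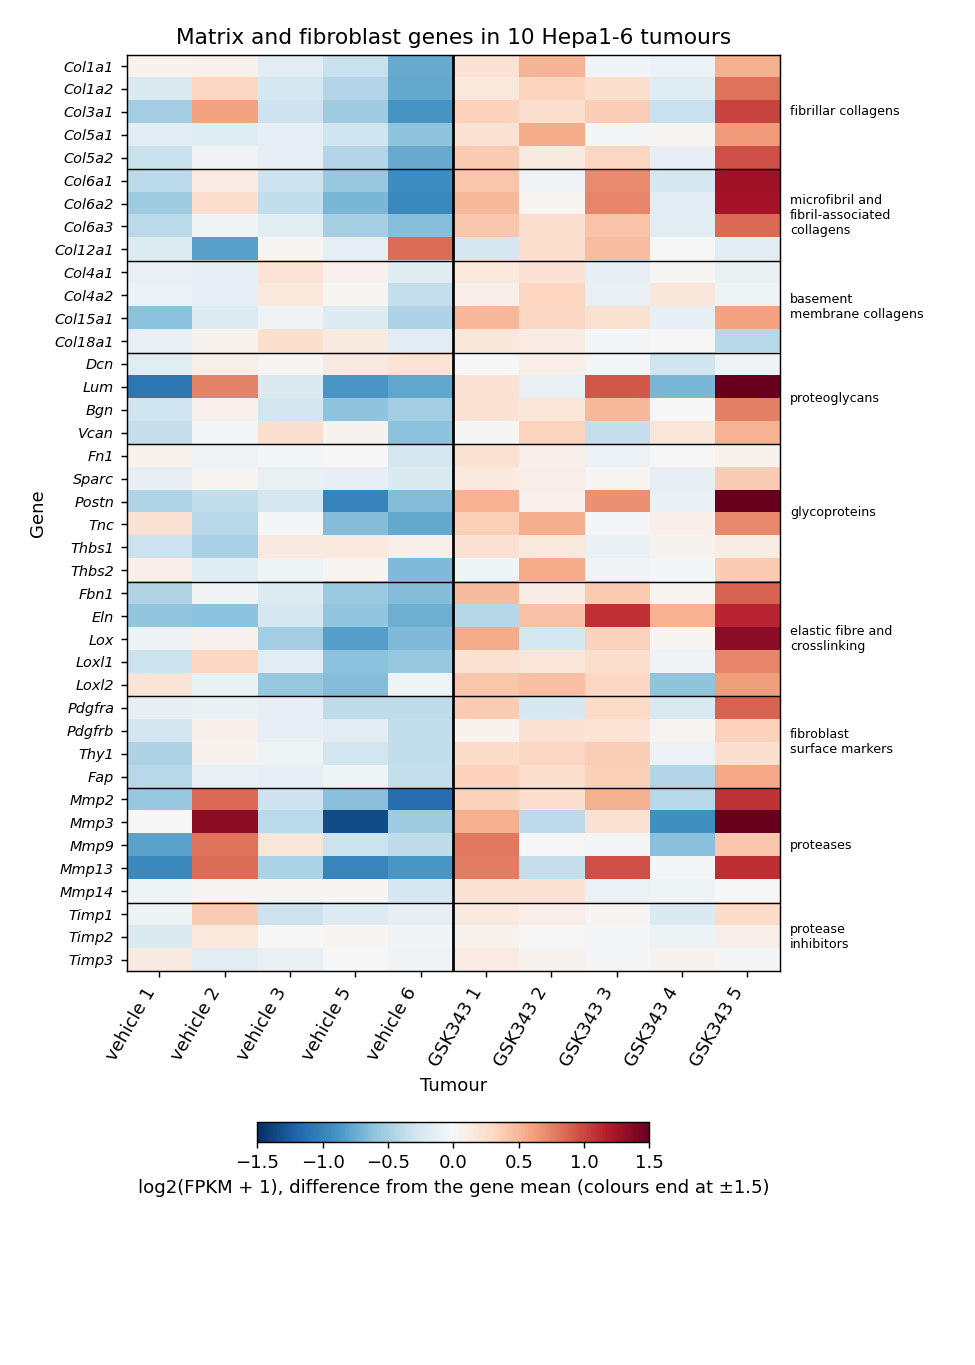
Level of each gene in each tumour as the difference of log2(FPKM + 1) from that gene's mean over the 10 tumours, with genes in rows by class and tumours in columns (5 vehicle left of the line, 5 GSK343 right of it). The column of GSK343 replicate 5 is the reddest, with the highest value for 26 of 40 genes, and vehicle replicate 2 holds the highest vehicle value for 22 genes.

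Markers of other cell types also differed between these tumours. All 10 leukocyte markers had a higher mean in GSK343 tumours, 8 of them at an unadjusted p under 0.05 by limma and none called, and their summed level ran from 301 to 866 FPKM with vehicle and from 604 to 1031 FPKM with GSK343. Within vehicle, replicate 2 had the highest sum, and within GSK343, replicate 4 had the lowest and replicate 5 the highest. Of 8 macrophage markers 7 had a higher fitted value, 6 at an unadjusted p under 0.05 by limma (337 to 1442 FPKM summed in vehicle, 806 to 1317 in GSK343). All 9 tested of 10 pericyte and smooth muscle markers were on the higher side, 5 at an unadjusted p under 0.05 by limma and none called. Their sums, in which Acta2 and Rgs5 were the largest parts, did not overlap (135 to 179 against 188.5 to 238 FPKM). Taken singly, 2 of the 9 had groups without overlap, Notch3 and Acta2, and the rest overlapped. The share of all lines higher without overlap was 1.42%. Cnn1, a smooth muscle marker, was under the filter. Of the other fibroblast markers 11 of 12 were tested, 10 had a higher mean (4 higher and 1 lower at an unadjusted p under 0.05 by limma), and sums overlapped (52.5 to 174 against 74.2 to 304 FPKM). Tcf21, a fibroblast transcription factor, was listed at 0 in every tumour, and Twist2, another, measured 8.501 ± 1.54 against 6.57 ± 0.959 FPKM (SD, n = 5), the 1 marker of its list on the lower side. The 3 tested of 8 neutrophil markers had a higher mean, 1 at an unadjusted p under 0.05 by limma. Of those under the filter, Ly6g had a lower mean and Cxcr2, Mmp8, Ltf and Camp a higher one. The 5 tested of 7 keratinocyte markers and the 1 tested of 5 adipocyte markers had a lower mean, none at an unadjusted p under 0.05 by limma. Endothelial markers had a higher mean in all 6 tested of 8, none at an unadjusted p under 0.05 by limma. Their sums were 29.5 to 49.0 against 35.9 to 54.6 FPKM, and Tek and Erg were under the filter. All 9 tested of 10 hepatoma and hepatocyte markers had a lower mean, 3 at an unadjusted p under 0.05 by limma (sums of 6128 to 8006 against 4803 to 6629 FPKM; Dlk1 was under the filter). All 10 skeletal muscle markers had a higher mean, 8 at an unadjusted p under 0.05 by limma and none called, with a median log2 fold change of 1.63 and sums of 3.57 to 113 against 66.6 to 479 FPKM. The share of mitochondrial transcripts was 7.17% in GSK343 replicate 3, 7.11% in GSK343 replicate 5 and between 2.63% and 5.05% elsewhere.

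With the mean log2 level of the leukocyte markers as a covariate in the fit, the median log2 fold change of the 40 genes was 0.135 in place of 0.45 (0.0136 over all lines). It was then above 0 for 30 members. Fbn1, Timp3 and Eln, 3 members in all, were higher at an unadjusted p under 0.05 in that limma fit, against 3.28% of all lines. The covariate itself differed between groups, from 4.30 to 5.61 with vehicle and from 5.17 to 6.09 with GSK343. This fit therefore cannot fully separate the covariate from the treatment. The part of the other cell types in the differences below was not tested.

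**Figure D3:**
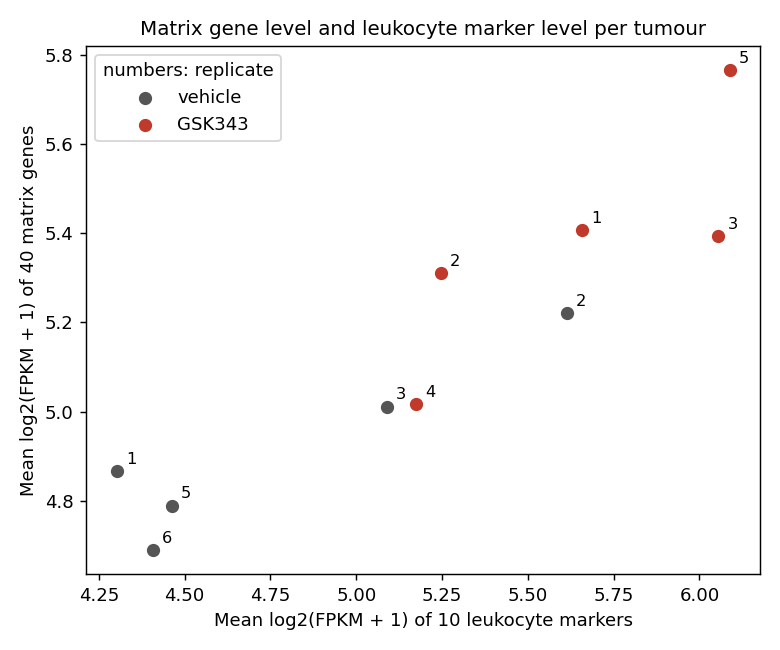
Mean log2(FPKM + 1) of the 40 matrix genes (vertical) against that of 10 leukocyte markers (horizontal), 1 point per tumour, grey for vehicle and red for GSK343, with replicate numbers. Vehicle replicate 2, at a leukocyte value of 5.61, lies among the GSK343 tumours, and GSK343 replicate 4, at 5.17, lies beside vehicle replicate 3.

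The 5 fibrillar collagens all had higher means in GSK343 tumours, with log2 fold changes of 0.45 to 0.68 (median 0.56). All 5 had an unadjusted p under 0.05 by limma, and none passed after adjustment. Col1a1, the main chain of type I collagen (mm10 chromosome 11, 94936224 to 94953042), measured 197, 199, 168, 151 and 111 FPKM in the vehicle tumours and 219.7, 271, 184, 178 and 275 FPKM in the GSK343 tumours, each in the order of replicates given above. Vehicle replicate 6 was lowest, and GSK343 replicates 3 and 4 lay within the vehicle range. Col1a2, its partner chain, measured 150.1, 217, 146, 128 and 102 FPKM with vehicle and 196, 221, 206, 154 and 308 FPKM with GSK343. Vehicle replicate 2 exceeded 3 of the 5 GSK343 tumours for this chain. Col3a1, the only chain of type III collagen (chromosome 1, 45311538 to 45349706), measured 90.7, 198, 105, 89.5 and 70.3 FPKM against 165, 155, 168, 103 and 265 FPKM. The annotation places 141 of its exonic bases in the microRNA gene Gm47302 on the same strand, so their reads cannot be told apart there. Vehicle replicate 2 was above every GSK343 tumour but replicate 5.

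Type V collagen starts and sizes type I fibrils. Col5a1, one of its chains (chromosome 2, 27886425 to 28039514) measured 9.42, 9.30, 9.57, 8.46 and 6.64 FPKM with vehicle and 12.5, 16.1, 10.4, 10.8 and 17.1 FPKM with GSK343. Every GSK343 tumour was above every vehicle tumour, by a narrow margin in replicates 3 and 4 (log2 fold change 0.56, SE 0.150, limma adjusted p = 0.191). Col5a2 (chromosome 1, 45374321 to 45503282) measured 20.9, 25.6, 24.4, 19.4 and 15.4 FPKM against 35.4, 29.3, 33.6, 24.4 and 53.1 FPKM, and GSK343 replicate 4 alone fell within the vehicle range (log2 fold change 0.68, SE 0.196, limma adjusted p = 0.192). Ratios between chains did not separate the groups. The ratio of Col1a1 to Col1a2 was 1.13 ± 0.144 in vehicle and 1.06 ± 0.156 in GSK343 tumours (SD, n = 5), and that of Col3a1 to Col1a1 was 0.661 ± 0.199 and 0.755 ± 0.183, with overlapping groups for both.

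The chains of type VI collagen, a beaded microfibril around cells, had log2 fold changes of 0.71 to 0.93. Col6a1 (chromosome 10, 76708792 to 76726168) measured 48.5, 70.6, 52.1, 43.1 and 33.4 FPKM with vehicle and 86.4, 62.3, 106, 53.9 and 158 FPKM with GSK343 (log2 fold change 0.84, SE 0.285, limma adjusted p = 0.208). Its neighbour Col6a2 measured 35.5, 61.8, 39.8, 31.9 and 26.1 FPKM against 72.9, 52.9, 86.7, 45.9 and 125 FPKM (log2 fold change 0.93, SE 0.286, limma adjusted p = 0.196). In both genes GSK343 replicates 2 and 4 lay below vehicle replicate 2. Col6a3, the largest chain, measured 20.3, 26.1, 24.2, 19.0 and 17.1 FPKM against 36.3, 32.5, 36.9, 24.3 and 49.9 FPKM (log2 fold change 0.71, SE 0.176, limma adjusted p = 0.191). Only GSK343 replicate 4 of the 5 GSK343 tumours was within the vehicle range for this chain. The ratio of Col6a1 to Col6a2 was 1.29 ± 0.0889 and 1.21 ± 0.0387 (SD, n = 5), and the groups overlapped. Without GSK343 replicates 3 and 5 the median of the class was 0.48 in place of 0.77.

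Col12a1, a fibril-associated collagen, did not follow the other members of its class. It measured 12.5, 7.87, 14.8, 13.2 and 26.8 FPKM with vehicle and 12.04, 17.5, 20.5, 14.7 and 12.9 FPKM with GSK343 (log2 fold change 0.12, SE 0.263, limma adjusted p = 0.841). Vehicle replicate 6, the lowest tumour for most matrix genes, had the highest value of all 10 here, and vehicle replicate 2 the lowest.

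Basement membrane collagens divided into Col15a1 and the rest. Col15a1, a collagen at the outer face of basement membranes (chromosome 4, 47208161 to 47313167), measured 11.8, 15.9, 17.8, 16.1 and 13.2 FPKM with vehicle and 26.6, 23.2, 21.9, 17.0 and 28.7 FPKM with GSK343 (log2 fold change 0.61, SE 0.148, limma adjusted p = 0.189). GSK343 replicate 4, at 17.0 FPKM, was the only GSK343 tumour below the highest vehicle tumour. Col4a1, the main chain of the basement membrane sheet, measured 55.9, 54.6, 69.5, 63.4 and 52.9 FPKM against 67.5, 70.2, 55.2, 61.1 and 56.3 FPKM, with wide overlap. Col4a2, transcribed in the opposite direction from the same short region, measured 39.6, 38.3, 47.0, 42.8 and 32.7 FPKM against 44.7, 53.2, 38.8, 47.4 and 40.4 FPKM. Their ratio stayed between 1.29 and 1.62 in all 10 tumours. Col18a1, the source of endostatin, measured 57.3, 64.2, 73.3, 68.1 and 55.5 FPKM against 70.0, 67.4, 60.5, 62.1 and 46.1 FPKM, and GSK343 replicate 5, the highest tumour for most matrix genes, was the lowest for this gene. The median log2 fold change of the class was 0.11, and Col15a1 was the 1 member of 4 with an unadjusted p under 0.05 by limma.

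The small leucine-rich proteoglycans differed widely in level and in spread. Dcn, which encodes decorin, a regulator of fibril spacing (chromosome 10, 97479609 to 97518143), was the most abundant of the 40 genes in vehicle and ranked 66 of 14496 lines over all tumours. It measured 996, 1193, 1137, 1228 and 1291 FPKM with vehicle and 1125, 1203, 1104, 910.3 and 1070 FPKM with GSK343 (log2 fold change -0.11, SE 0.0977, limma adjusted p = 0.573). Its highest value was in vehicle replicate 6, in which 21 of the other genes were at their lowest. Lum, which encodes lumican of the same family and lies next to Dcn on chromosome 10, measured 1.59, 8.16, 3.72, 2.002 and 2.21 FPKM against 5.36, 4.07, 9.44, 2.42 and 19.0 FPKM. Lumican was the less abundant of this pair in every tumour, and its highest value, 19.0 FPKM, was in GSK343 replicate 5. Bgn, which encodes biglycan (chromosome X, 73483602 to 73495933), measured 109.7, 141, 111, 88.4 and 93.9 FPKM against 157.5, 153, 189, 136 and 229 FPKM, and GSK343 replicate 4 alone lay under vehicle replicate 2 (log2 fold change 0.66, SE 0.159, limma adjusted p = 0.189). Vcan, which encodes the large proteoglycan versican, was close to the filter at 1.24 ± 0.507 and 1.72 ± 0.590 FPKM (SD, n = 5), and its tumours measured 0.890, 1.38, 1.86, 1.51 and 0.580 FPKM with vehicle and 1.44, 2.04, 0.904, 1.73 and 2.46 FPKM in GSK343.

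Among the glycoproteins, Postn had the largest fitted difference. Postn, which encodes periostin, a matrix protein of activated fibroblasts (chromosome 3, 54361109 to 54391037), measured 65.9, 69.4, 75.4, 44.6 and 57.1 FPKM with vehicle and 130.4, 94.2, 146, 84.4 and 268 FPKM with GSK343. The lowest GSK343 tumour was above the highest vehicle tumour, and GSK343 replicate 5 was the highest by a wide margin (log2 fold change 1.09, SE 0.281, limma adjusted p = 0.191). Tnc, which encodes tenascin-C of remodelling tissue, measured 9.13, 5.52, 7.53, 4.56 and 4.11 FPKM against 10.2, 11.7, 7.59, 8.17 and 13.3 FPKM. On the opposite strand 176 of its exonic bases belong to the noncoding gene 8030451A03Rik, which measured 27.4 ± 1.92 and 22.5 ± 5.38 FPKM (SD, n = 5). Reads of these partners cannot be told apart if the counting ignored strand.

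Fn1 and Sparc were abundant in every tumour. Fn1, which encodes fibronectin, a cell-adhesion protein also made by hepatocytes, measured 1131, 1054, 1072, 1083 and 918 FPKM with vehicle and 1273, 1146, 1027, 1092 and 1128 FPKM with GSK343 (log2 fold change 0.11, SE 0.0837, limma adjusted p = 0.524). Sparc, which encodes a collagen-binding protein, measured 390.3, 439.7, 395.5, 391 and 366 FPKM against 474, 458, 434, 391 and 556 FPKM. Thbs1, which encodes thrombospondin-1, an inhibitor of vessel growth, measured 62.0, 55.0, 85.3, 86.3 and 83.6 FPKM against 90.4, 87.2, 72.0, 80.4 and 84.1 FPKM. Thbs2, its relative, measured 7.20 ± 1.52 and 9.27 ± 2.11 FPKM (SD, n = 5). The groups overlapped for these 4 genes, and of the 6 glycoproteins Postn, Tnc and Sparc had an unadjusted p under 0.05 by limma.

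The class of elastic fibre and crosslinking genes had a median log2 fold change of 0.77, and 4 of its 5 members had an unadjusted p under 0.05 by limma. Fbn1, which encodes fibrillin-1, the microfibril on which elastin is laid (chromosome 2, 125300594 to 125507993), measured 6.58, 8.95, 7.99, 6.01 and 5.57 FPKM with vehicle and 13.4, 10.2, 12.6, 9.67 and 18.1 FPKM with GSK343. Its groups did not overlap, and its unadjusted p was the smallest of the 40 genes (log2 fold change 0.77, SE 0.171, limma adjusted p = 0.189). Eln, which encodes elastin (chromosome 5, 134702593 to 134747323), measured 2.28, 2.23, 3.17, 2.28 and 1.98 FPKM against 2.69, 5.71, 9.56, 6.10 and 9.92 FPKM. GSK343 replicate 1 lay within the vehicle range, and the other 4 GSK343 tumours were above it (log2 fold change 1.11, SE 0.263, limma adjusted p = 0.189). Without GSK343 replicate 1, Eln passed the test (log2 fold change 1.35, limma adjusted p = 0.0112), and it was the 1 member called in any of the 10 fits that left out 1 tumour. The tumour left out there was the GSK343 tumour within the vehicle range. More lines of the whole table were also called in that fit than with all tumours.

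The lysyl oxidases, which crosslink collagen and elastin, overlapped between groups. Lox measured 11.9, 13.2, 8.43, 6.68 and 7.58 FPKM with vehicle and 19.0, 10.3, 16.3, 12.8 and 33.5 FPKM with GSK343, with GSK343 replicates 2 and 4 below vehicle replicate 2. Loxl1, the form tied to elastin, measured 6.61, 10.7, 7.51, 5.19 and 5.37 FPKM against 10.1, 9.74, 10.3, 8.17 and 14.8 FPKM. Both had limma adjusted p = 0.213. Loxl2, which acts on type IV collagen, measured 6.50 ± 1.82 and 9.59 ± 2.91 FPKM (SD, n = 5; limma adjusted p = 0.333).

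**Figure D4:**
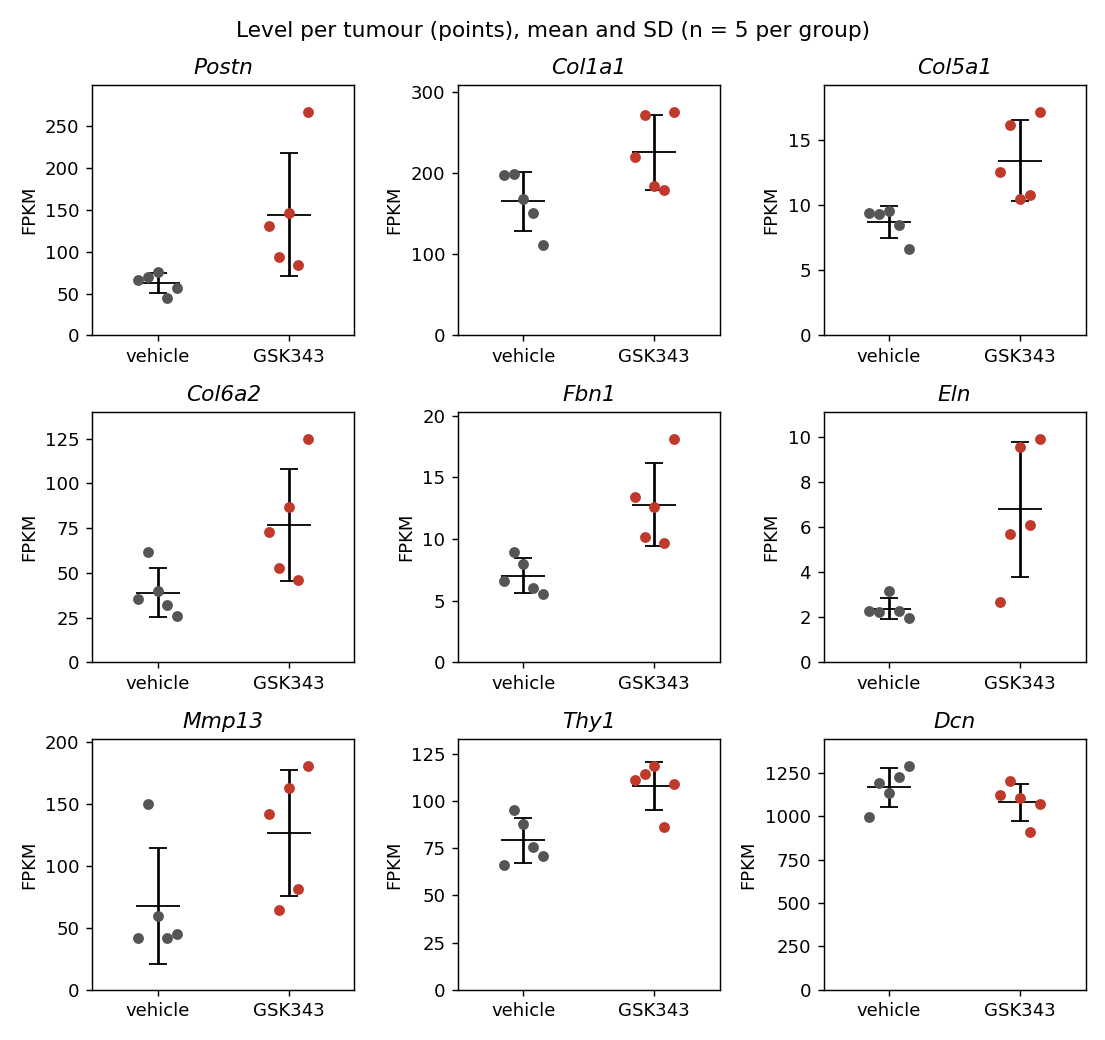
Level in FPKM of 9 of the genes in each tumour (points; grey vehicle, red GSK343), with the mean and SD of each group (n = 5), on axes that start at 0. Groups do not overlap for Postn, Col5a1 and Fbn1, Mmp13 has a vehicle tumour at 149.8 FPKM within the GSK343 range, and Dcn averages 1169 FPKM with vehicle and 1082 FPKM with GSK343.

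Surface markers of fibroblasts were present at very different levels. Thy1, a surface glycoprotein also carried by mouse T cells (chromosome 9, 44043384 to 44048579), measured 66.3, 95.2, 87.7, 75.9 and 71.2 FPKM with vehicle and 111, 115, 119, 86.5 and 109 FPKM with GSK343 (log2 fold change 0.45, SE 0.117, limma adjusted p = 0.191). GSK343 replicate 4 was the only GSK343 tumour below vehicle replicates 2 and 3. The summed T cell markers ran from 47.6 to 163.5 FPKM with vehicle and from 92.0 to 240.4 FPKM with GSK343, with all 9 on the higher side, 3 at an unadjusted p under 0.05 and none called by limma. Pdgfrb, the receptor of fibroblasts and pericytes for platelet-derived growth factor, measured 15.3, 19.7, 17.1, 16.6 and 14.2 FPKM against 19.4, 21.8, 21.8, 19.3 and 23.97 FPKM, and 2 GSK343 tumours lay below vehicle replicate 2. Pdgfra, the receptor that marks fibroblasts, was low at 1.62 ± 0.259 and 2.70 ± 1.25 FPKM (SD, n = 5). Fap, a surface protease of activated fibroblasts, measured 2.48, 3.33, 3.26, 3.47 and 2.65 FPKM against 4.91, 4.52, 4.97, 2.43 and 5.93 FPKM, and GSK343 replicate 4 was the lowest of all 10 tumours. All 4 markers were detected in every tumour, and 3 of them, all but Pdgfra, had an unadjusted p under 0.05 by limma.

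Several proteases varied widely between tumours of the same group. Mmp13, a collagenase of stromal cells and macrophages (chromosome 9, 7272514 to 7283331), measured 41.9, 149.8, 59.4, 41.4 and 44.9 FPKM with vehicle and 141.5, 64.6, 163, 81.7 and 180.5 FPKM with GSK343 (log2 fold change 0.98, SE 0.395, limma adjusted p = 0.244). Vehicle replicate 2 was above 3 of the 5 GSK343 tumours. Mmp2, a gelatinase, measured 8.60, 24.7, 10.55, 8.23 and 5.47 FPKM against 17.1, 16.0, 19.7, 9.69 and 29.2 FPKM, and Mmp3, stromelysin-1, measured 10.4, 27.9, 7.61, 3.50 and 6.87 FPKM against 15.5, 7.71, 12.2, 5.04 and 31.7 FPKM. In both, vehicle replicate 2 exceeded 4 of the 5 GSK343 tumours. Mmp9, a gelatinase of myeloid cells, measured 29.0 ± 13.8 and 32.8 ± 12.2 FPKM (SD, n = 5), and its highest value of the 10 tumours was 51.2 FPKM in vehicle replicate 2. That tumour also had the highest summed macrophage markers, 1442 FPKM. Mmp14, a membrane-bound protease that activates Mmp2, was steady at 104, 109.9, 109.9, 110.2 and 91.5 FPKM against 126, 127, 102.5, 104 and 108.5 FPKM. Of the 5 proteases, Mmp13 alone had an unadjusted p under 0.05 by limma. The median log2 fold change of the class was 0.38, and it was 0.76 when vehicle replicate 2 was left out, 0.66 when GSK343 replicate 4 was, 0.15 when vehicle replicate 5 was and 0.13 when GSK343 replicate 5 was.

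The protease inhibitors had log2 fold changes of 0.03 to 0.13 and no member at an unadjusted p under 0.05 by limma. Timp1, an inducible inhibitor, measured 65.2, 89.5, 54.5, 60.03 and 63.0 FPKM with vehicle and 75.8, 73.6, 70.3, 58.9 and 82.9 FPKM with GSK343. Timp2, which also takes part in activating Mmp2, measured 109.5, 143, 128.5, 131 and 124 FPKM against 133, 128, 127, 121.5 and 138 FPKM. Timp3, the matrix-bound inhibitor, measured 46.0, 37.1, 38.6, 42.2 and 40.3 FPKM against 45.8, 43.4, 41.3, 43.6 and 41.5 FPKM. All 3 overlapped between groups. The ratio of Mmp2 to Timp2 was 0.0882 ± 0.0498 in vehicle and 0.140 ± 0.0485 in GSK343 tumours (SD, n = 5), and the groups overlapped, with vehicle replicate 2 at 0.173.

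Other genes of matrix biology were read from 6 further lists of 141 genes, of which 100 passed the filter. None was called by limma, 32 were higher and 3 lower at an unadjusted p under 0.05 (10.7% and 6.86% of all lines), and the median log2 fold change was 0.20. All counts of these lists below use that unadjusted threshold. Collagen processing genes had 8 of 24 tested members higher and 1 lower at that level. Among them Serpinh1, the collagen chaperone HSP47, measured 48.5 ± 10.1 against 76.8 ± 15.4 FPKM and Loxl3, a lysyl oxidase, 11.7 ± 3.18 against 21.6 ± 6.56 FPKM (SD, n = 5). Kdelr2, a receptor that returns proteins to the endoplasmic reticulum, had no overlap and was on the lower side with GSK343, at 155 ± 12.1 against 128 ± 6.34 FPKM. Over all 6 lists, 3 of the 100 tested genes were higher without overlap and 1 was lower. The shares of all lines were 1.42% and 1.2%, so these few genes are close to what any 100 lines would hold.

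Of the other collagens, 9 of 31 passed the filter, with 2 higher and 1 lower at an unadjusted p under 0.05 by limma. Col5a3, the further chain of type V collagen, measured 14.8 ± 1.60 against 20.4 ± 2.76 FPKM, Col16a1 8.93 ± 1.64 against 12.6 ± 2.50 FPKM, and Col9a1, a cartilage collagen, 2.32 ± 0.586 against 1.62 ± 0.363 FPKM (SD, n = 5). The list of laminins and basement membrane genes, which also took in Sparcl1, had 5 of 12 tested members higher and none lower at that threshold. Its median log2 fold change of 0.16 was near the 0.11 of the basement membrane collagens. Sparcl1, a relative of Sparc, measured 27.1 ± 4.49 against 42.9 ± 12.1 FPKM without overlap, Lama4, a laminin chain of vessels, 5.42 ± 0.947 against 7.78 ± 1.66 FPKM, and Hspg2, which encodes perlecan, 16.0 ± 3.22 against 20.7 ± 3.07 FPKM. Elastic fibre and small glycoprotein genes had 8 of 20 tested members higher and 1 lower at it, with the largest median of these lists, 0.51. Tgfbi, an adhesion protein, measured 30.7 ± 13.4 against 55.6 ± 15.2 FPKM, and Aspn, a small proteoglycan, 9.39 ± 1.78 against 15.4 ± 5.02 FPKM. Spon1, which encodes F-spondin, measured 2.35 ± 0.826 against 3.69 ± 0.611 FPKM.

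Of 15 tested matrix receptors, 10 had a higher and 5 a lower fitted value, and 3 were higher and none lower at an unadjusted p under 0.05 by limma. These were Mrc2, a receptor that takes up collagen, at 3.12 ± 0.891 against 5.20 ± 1.23 FPKM, Itgav, an integrin chain that binds fibronectin, at 11.4 ± 2.06 against 16.4 ± 3.92 FPKM, and Itga1, a collagen-binding integrin chain, at 3.56 ± 0.786 against 5.25 ± 1.17 FPKM (SD, n = 5). Of 20 further proteases and inhibitors tested, 15 had a higher and 5 a lower fitted value, and 6 were higher and none lower at an unadjusted p under 0.05 by limma. Adamts1 measured 5.46 ± 0.658 against 7.55 ± 1.45 FPKM and Adamts12 1.51 ± 0.163 against 2.22 ± 0.497 FPKM, both secreted metalloproteinases and both without overlap. Mmp12, the macrophage elastase, which lies between Mmp13 and Mmp3 on chromosome 9, measured 45.4, 205.7, 84.4, 45.7 and 49.8 FPKM with vehicle and 248.6, 92.6, 263.6, 161 and 234.7 FPKM with GSK343 (log2 fold change 1.39, SE 0.437, limma adjusted p = 0.200). As for Mmp13, Mmp2 and Mmp3, its highest vehicle value was in replicate 2, and as for those genes that tumour lay within the GSK343 range.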

How the data were processed

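Poly-A RNA of 10 tumours was sequenced on an Illumina instrument. The mm10 build is named in the submitters' processing notes, as are StringTie 1.3.3b, HISAT2 2.1.0 and Trimmomatic 0.33. Their options, the annotation release and the use of strand are not given in the sources here. The deposited values were read as FPKM because they are not whole and sum to 574547 to 623397 per tumour. Library depth is unknown, so no counting interval is given. From 13985 to 14714 lines per tumour reached 1 FPKM.

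Values were tested as log2(FPKM + 1) with limma 3.58.1 (R 4.3.3, intensity trend, two-sided, Benjamini-Hochberg over all lines) in the 14496 lines whose mean reached 1 FPKM. The test was checked on simulated data with independent noise and with shifts, set in genes of higher level, above the median of the members. That check does not cover smaller shifts, low genes or tumours that move together across genes. The members and lists were chosen with earlier results of these data known. No test was made over the list. Values per tumour are given for the most abundant member and up to 3 members of smallest p in each class, and for others chosen after their values were seen. Up to 3 genes of smallest p were named per further list. Alternatives covered filter, pseudocount, scaling, variance model, tumour weights, a leukocyte covariate, summed lines, threshold and tumours left out; 1 was added after the data were seen. Promoters came from RefSeq GRCm38.p6, exons from GENCODE M21.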

Additional observations from a re-analysis of the deposited data

Results flagged for a closer look

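Each of the 80 sets of 5 values (40 genes in 2 groups) was examined for a highest or lowest tumour far from the rest, by Dixon's criterion (a gap over 0.710 of the range), and 6 were found. For normally distributed values chance gives about 1 in 20 such sets. The values used were FPKM without a log, their distribution was not examined, and the genes are not independent. Of the 6, 4 were the same tumour, vehicle replicate 2. In it Col3a1 was 197.9 FPKM, against 70.3 to 105 FPKM in the other vehicle tumours, and Mmp13 was 149.8 FPKM, against 41.4 to 59.4 FPKM. Mmp2 was 24.7 FPKM there, against 5.47 to 10.55 FPKM, and Mmp3 27.9 FPKM, against 3.50 to 10.4 FPKM. The leukocyte value of this tumour, 5.61, was the highest of the vehicle group, and its part in these values was not tested. Thy1 was 86.5 FPKM in GSK343 replicate 4, below the 109 to 119 FPKM of the other GSK343 tumours. Eln was 3.17 FPKM in vehicle replicate 3, above the 1.98 to 2.28 FPKM of the other vehicle tumours.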

How the results depend on the processing

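Leaving out each tumour in turn, limma called 0 to 1 of the 40 genes, their median log2 fold change was 0.38 to 0.61, and 15 to 25 were higher at an unadjusted p under 0.05. With the leukocyte covariate the median was 0.135 and the count 3; the cause was not tested. The count was 12 without GSK343 replicates 3 and 5 and 11 without vehicle replicate 6 and GSK343 replicate 5 (an alternative chosen after seeing the data), where fewer tumours were fitted. Under the other alternatives the count was 16 to 25 and no member was called. Apart from the covariate fit, the share of all lines past that unadjusted threshold is not given for the alternatives. The replicate numbers 1, 2, 3 and 5 occur in both groups, and no label says whether same-numbered tumours were paired. The deviations of same-numbered tumours correlated at -0.33 to 0.03, and those of differently numbered tumours at -0.32 to 0.31. These few correlations cannot decide whether tumours of the same number belong together. With the replicate block 0 genes were called, the count was 16 and the median 0.54, and the calls over all lines were 2 in place of 12. Those calls were 3 to 96 when each tumour was left out in turn, with 96 without vehicle replicate 2 and 37 without GSK343 replicate 1.

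Log2 fold changes that changed sign with the leukocyte covariate were those of Col3a1 (-0.13), Lum (-0.50), Mmp2 (-0.28), Mmp3 (-0.91), Mmp9 (-0.59), Mmp13 (-0.19), Timp1 (-0.11) and Timp2 (-0.11). Without GSK343 replicates 3 and 5, Col18a1 was 0.068 and Mmp3 -0.0683. Without vehicle replicate 6 and GSK343 replicate 5, Mmp3 was -0.0372 and Timp2 -0.000989. When each tumour was left out in turn, Timp2 ranged from -0.0229 to 0.072, Col12a1 from -0.0705 to 0.34 and Col18a1 from -0.11 to 0.0347. The unknown depth limits what can be said of Vcan and Pdgfra, which lie near the filter. It also limits what can be said of Fap and Eln, which were low, with means of 3.80 and 4.59 FPKM over all tumours.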
